A study of Homo sapiens with 5 samples.

Results

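Among the peaks called for the transcription factor NRF2 in human bronchial cells, 8 of 4124 had their summit in windows around genes of red blood cells and of antibody-producing cells. These are the alpha-globin genes HBA2 and HBA1, the beta-globin gene HBB, and the constant-region genes IGHG4, IGHG2 and IGHG1 of the antibody heavy chain. The peaks were chosen by the position of the called summit, in hg19 coordinates: chr16:220000-230000 for HBA2 and HBA1, chr11:5240000-5255000 for HBB, and chr14:106080000-106240000 for the IGHG genes. The windows were set with these lists already known, so that a peak lies in them, and in which list, is a description and not a test. The 4 peaks in the globin windows were all in the vehicle list, and the 4 in the IGHG window were all in the list from cells treated with sulforaphane (SFN).

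BEAS-2B is an established, immortalised line of human bronchial epithelial cells. In 2 samples the cells had received 10 µM D,L-sulforaphane for 5 hours, and in 2 samples 0.1% DMSO, the vehicle, for as long; DNA bound by NRF2 was recovered from all 4 with a rabbit monoclonal antibody and sequenced (ChIP-seq). In 1 more vehicle sample rabbit IgG took the place of that antibody. Peaks were deposited as 1 list per treatment, of 1925 peaks for SFN and 2199 for vehicle, called against a common control. The headers give 1 control alignment whose name carries the words input and IgG, and how far it holds the IgG sample is not stated. With 1 list per treatment, no value had a spread between replicates and no difference between treatments could be tested. After identical positions were reduced to 1 tag, the lists rested on 7448599 SFN tags and 1459665 vehicle tags, a ratio of 5.10.

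Hemoglobin carries oxygen in red blood cells and is built from alpha and beta chains. HBA1 and HBA2 are neighbouring genes that encode the same alpha chain, and HBB encodes the adult beta chain; all are transcribed at high levels in erythroid precursors. The IGHG genes encode the constant part of the heavy chain of the IgG subclasses and are used by B cells and plasma cells after class switching. NRF2 is best known to act through other genes, such as those of glutathione synthesis and quinone detoxification. Neither the globin genes nor the IGHG genes are typical of bronchial epithelium. The globin genes and the IGHG genes each arose by gene duplication, so the members of each group resemble each other in sequence.

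In the vehicle list, the highest peaks of the windows were those at alpha-globin. The first, chr16:222887-223674, was 788 bp wide and had a pileup of 69 tags at its summit (exact Poisson 95% interval 53.7 to 87.3). The second, chr16:226693-227485, was 793 bp wide and had 71 tags (55.5 to 89.6). In the order of the RefSeq genes HBA2 comes before HBA1, and the peaks are given here as those of HBA2 and HBA1 by that order. Their heights differed by less than their counting error, with 1.03 times as many tags at HBA1 as at HBA2.

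By the fold that the caller computed against the local control, deposited by the authors for each peak, these were the top 2 of the 2199 vehicle peaks. The fold was 47.7 at HBA2 and 41.7 at HBA1, against a median of 5.44 over the list. The −log10 p values were 123 and 114. The local control level, computed back from the fold and the pileup, was 5.61 times the genome average at HBA2 and 8.73 times at HBA1, so the control was raised there too, above the list's median of 2.04.

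By height alone the alpha-globin peaks ranked 29 and 26 in the vehicle list. The 27 other vehicle peaks with at least 69 tags lay at control levels of 41.8 or more (median 105), and the highest fold among them was 31.9. Among the 1456 vehicle peaks at a control level under 10, the median height was 5 tags, and the highest peak outside the windows had 49. HBA2 and HBA1 thus combined the height of peaks in high-control regions with a control level well below theirs.

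**Figure D1:**
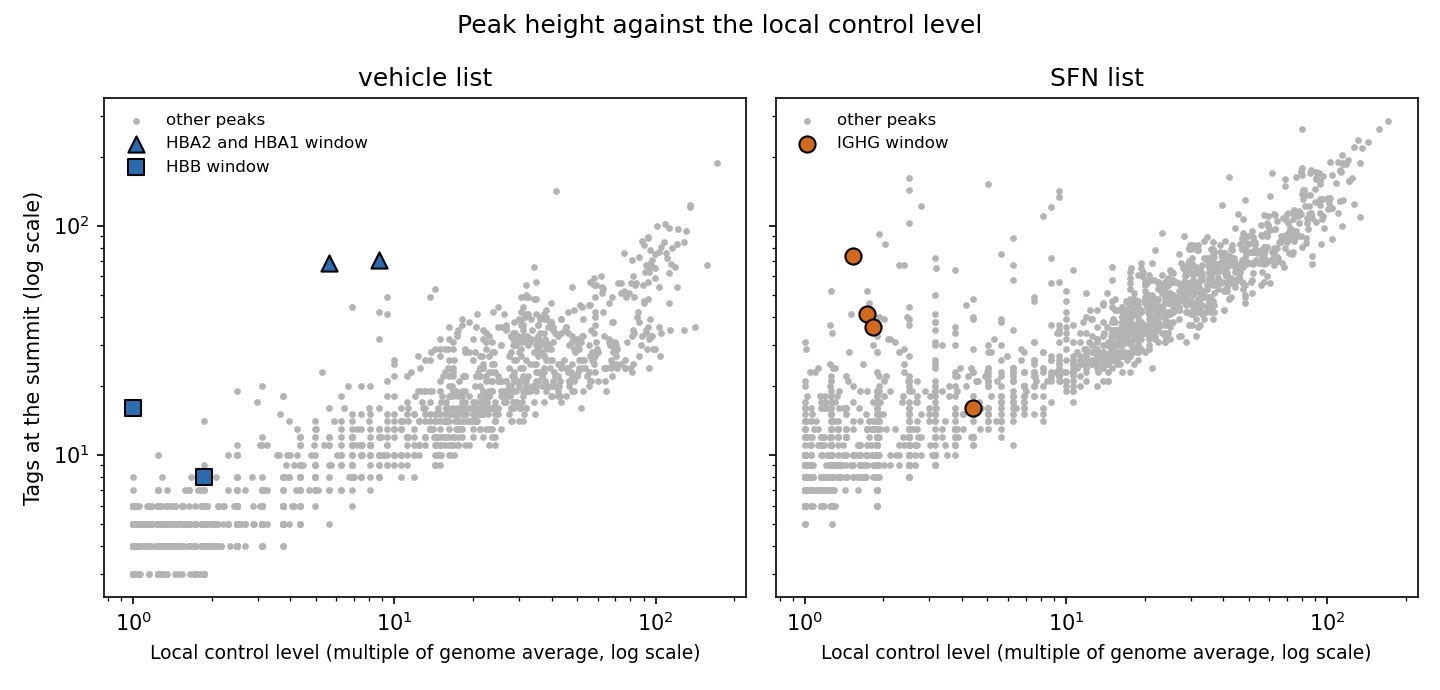
Tags at the summit (vertical, log scale) against the local control level as a multiple of the genome average (horizontal, log scale) for every peak of the vehicle list (left) and the SFN list (right); coloured symbols are the peaks in the windows and grey points all others. The HBA2 and HBA1 peaks, at 69 and 71 tags, lie above every other vehicle peak with a control level under 10, the next of which has 49 tags.

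The beta-globin window held 2 lower peaks of the vehicle list. The first, chr11:5246726-5246997, was 272 bp wide with 16 tags (9.15 to 26.0) and a fold of 15.7, the rank of 17 in its list. The control level that the caller used there equalled the genome average, and the control tags at that place are not given. The second, chr11:5247745-5248125, was 381 bp wide with 8 tags (3.45 to 15.8), a fold of 7.79 and a control level of 1.87. The first had more tags, but the counting intervals of the pair overlapped. The summits were 1028 bp apart, and 747 bp between the peaks were not called. One further vehicle peak lay just outside the window, chr11:5255293-5255446, with 5 tags and a fold of 4.97.

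The IGHG window held 4 peaks, all of the SFN list. The first along the chromosome, chr14:106091318-106091598 had 41 tags (29.4 to 55.6) and a fold of 24.2. Next, chr14:106110099-106110384 had 36 tags (25.2 to 49.8) and a fold of 20.9. The third, chr14:106135276-106135429, was the lowest, with 16 tags (9.15 to 26.0) and a fold of 5.96. The last, chr14:106208117-106208669, was the highest, with 74 tags (58.1 to 92.9) and a fold of 45.6. By the known positions of these genes, which were not read from an annotation of hg19 here, the first, second and last peaks are those of IGHG4, IGHG2 and IGHG1. The third lies between IGHG2 and IGHG1, a stretch that in the RefSeq order holds the pseudogenes IGHGP, ELK2AP and IGHEP1 and the IgA gene IGHA1.

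The peak at IGHG1 exceeded those at IGHG4 and IGHG2 beyond counting error, while IGHG4 and IGHG2 did not differ beyond it. The third peak lay below IGHG4 beyond counting error, and its interval just met that of IGHG2. Among the 1925 SFN peaks, IGHG1 ranked 7 by fold, IGHG4 24 and IGHG2 33, and the third peak ranked 628. The control level was 1.53 at IGHG1, 1.74 at IGHG4, 1.82 at IGHG2 and 4.39 at the third peak, against a list median of 8.16. The IGHG1 peak reached 24.2% and the HBA1 peak 23.1% of the largest pileup that 1 tag per position and strand allows (306 tags for SFN, 308 for vehicle).

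A fold of 10 or more was reached by 3 of the 4 globin peaks and by 3 of the 4 IGHG peaks. Over all peaks this share was 6.05% in the vehicle list and 8.10% in the SFN list. None of the 8 had a base in common with any peak of the other treatment, where 34.9% of all vehicle peaks and 37.9% of all SFN peaks did. Since the windows were picked for peaks known to be high and missing from the other list, nothing is read from these counts.

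The peaks stood far from any call of the other list. The nearest SFN peak lay 219023 bp from the HBA1 peak and 222834 bp from the HBA2 peak. The nearest vehicle peak lay 279818 bp from the IGHG4 peak and 353911 bp from the IGHG1 peak. At HBB it was closer, 53653 bp from the second peak, at chr11:5301778-5302148, where the SFN list had 14 tags and a fold of 9.81. Within 100 kb of the HBA and IGHG windows neither list held any other peak, and within 1000 kb the others had at most 11 tags near HBA and 8 near IGHG.

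Because the lists differ in depth, the height that each missing peak would have needed for a call was computed. It is the smallest pileup that reaches the weakest p of the other list at the same local control level. The caller also requires that a peak be held over the fragment length, which was not part of the computation. The height not reached thus means a height not reached over that length, and a narrower summit could have gone uncalled. At the alpha-globin peaks a call in the SFN list needed 11 tags at HBA2 and 14 at HBA1. The vehicle heights multiplied up to the SFN number of kept tags were 352 and 362. Both exceed the 306 tags that 1 tag per position and strand allows for SFN, so no SFN peak could have reached them. The ratios given below rest on the same proportional scaling, which leaves this cap out. Heights were put on a scale of depth as tags at the summit per 1000000 kept tags, called the depth-scaled height here. In the vehicle list it was 47.3 at HBA2 (36.8 to 59.8) and 48.6 at HBA1 (38.0 to 61.4), and the height not reached in the SFN list was 1.48 and 1.88. In this setting the vehicle height was 32.0 times the height not reached at HBA2 and 25.9 times at HBA1 (24.9 and 20.2 at the lower limits of the counting intervals). The ratios depend on the setting: they were 22.0 and 18.1 when the missing peak had to reach a q of 1e-05, and 12.7 and 10.3 when heights were divided by all tags before the limit of 1 per position.

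At the first HBB peak 5 tags would have sufficed in the SFN list, and the depth-scaled vehicle height of 10.96 (6.27 to 17.8) was 16.3 times the height not reached (9.33 at the lower limit). At the second HBB peak, with a depth-scaled height of 5.48 (2.37 to 10.8), it was 6.80 times (2.94 at the lower limit). At the stricter q the ratios of the pair were 10.2 and 4.08, and with all tags 6.49 and 2.71. The other vehicle peaks bound how these values can be read. All 1431 vehicle peaks without an SFN overlap stood at 2.21 times or more of the SFN height not reached, with a median of 4.08, since the SFN list is the deeper one. The HBA2, HBA1 and first HBB peaks ranked 1, 2 and 3 among them, and the second HBB peak ranked 18. A value of 10 or more was found for 6 of the 1431 (0.419%), 3 of which were these globin peaks, and the highest outside the windows was 11.9. The windows were picked for peaks known to be high and missing from the other list. Nothing is therefore read from the ranks and counts of the globin peaks.

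For the IGHG peaks the missing list is the shallow one. A call in the vehicle list needed 3 tags at IGHG4, IGHG2 and IGHG1, or a depth-scaled height of 2.06. The depth-scaled SFN heights were 5.50 at IGHG4 (3.95 to 7.47), 4.83 at IGHG2 (3.39 to 6.69) and 9.93 at IGHG1 (7.80 to 12.5). They were 2.68 times the height not reached at IGHG4, 2.35 times at IGHG2 and 4.83 times at IGHG1 (1.92, 1.65 and 3.80 at the lower limits). These ratios fell to 1.34, 1.18 and 2.42 at the stricter q and rose to 6.73, 5.91 and 12.2 with all tags. At the third IGHG peak, with a depth-scaled height of 2.15, a vehicle call needed 3.43, a ratio of 0.627, so in this setting a peak of equal depth-scaled height would not have been called. The ratio passed 1 with the control at the genome average (1.05) and with all tags (1.58), so the side of 1 on which it fell depended on the setting. At every peak the ratio is a description, and a difference between treatments was not tested.

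Among the 1195 SFN peaks without a vehicle overlap the median of this ratio was 0.653, and 19 (1.59%) reached 2 or more, 3 of them at IGHG1, IGHG4 and IGHG2. IGHG1 ranked 1, and the highest peak outside the windows reached 3.40. IGHG4 ranked 9 and IGHG2 ranked 15. For the same reason as at the globin peaks, nothing is read from these ranks and counts. The depth-scaled heights and the heights needed are shown together for all 8 peaks, and their place among the unshared peaks of each list in a further plot.

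**Figure D2:**
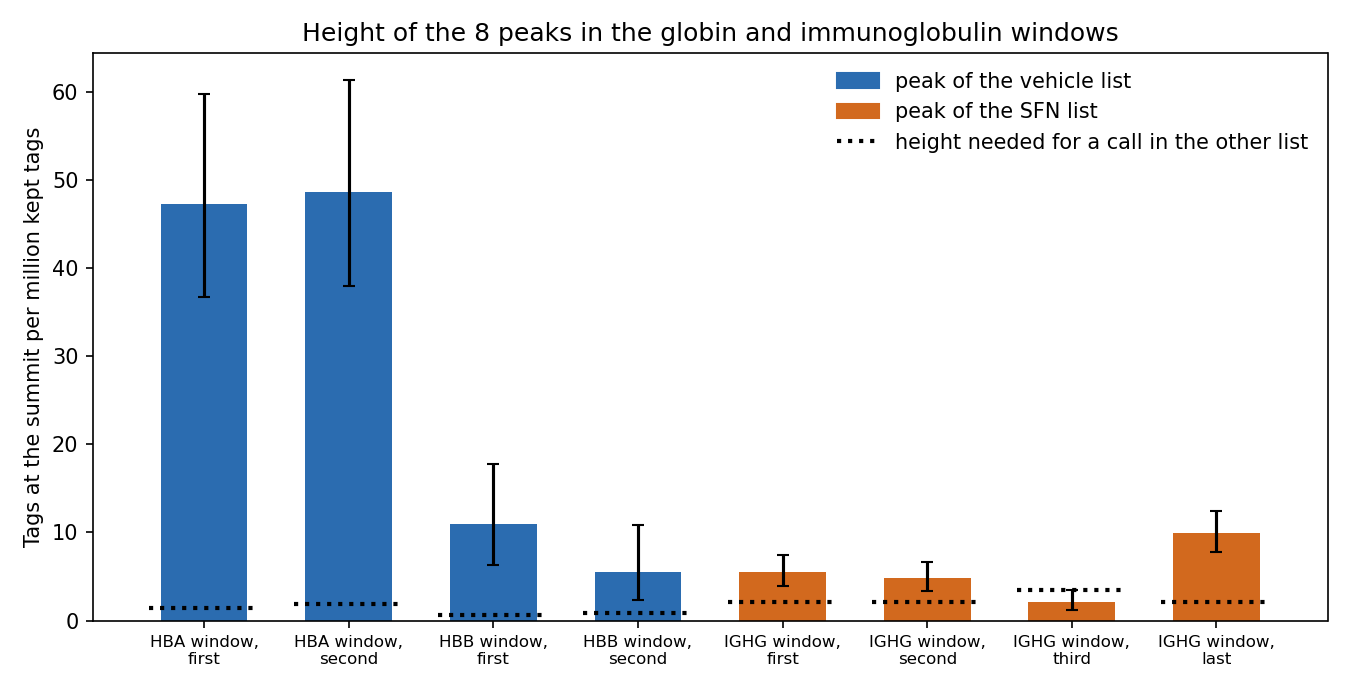
Depth-scaled height, in tags at the summit per 1000000 kept tags (vertical), for the 8 peaks, blue for the vehicle list and orange for the SFN list; error bars are exact Poisson 95% intervals, which cover counting error alone, and dotted lines mark the height needed for a call in the other list. The HBA2 and HBA1 bars, first and second from the left, stand at 47.3 and 48.6 against 1.48 and 1.88 needed, and the third IGHG peak alone lies below its line.

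**Figure D3:**
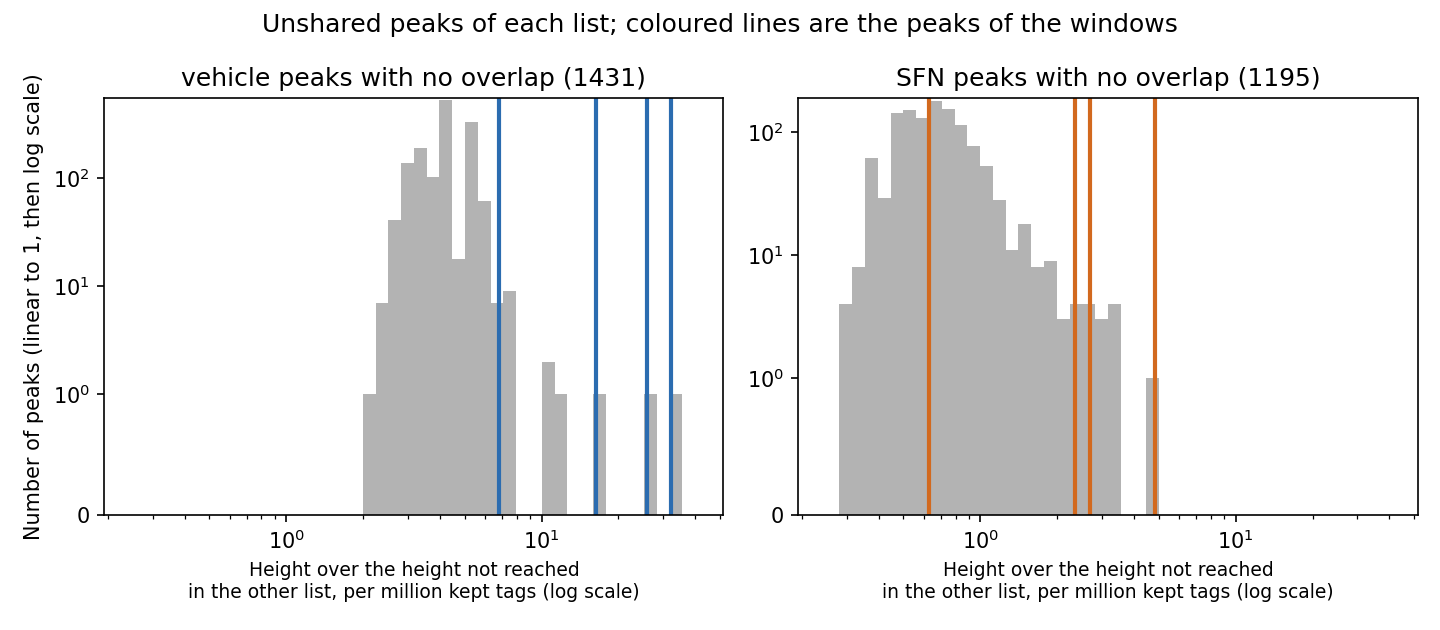
Number of peaks (vertical, linear to 1 and log above) by the ratio of their height to the height not reached in the other list (horizontal, log scale), for vehicle peaks without an SFN overlap (left, 1431) and SFN peaks without a vehicle overlap (right, 1195). Coloured lines mark the peaks in the windows: 32.0, 25.9, 16.3 and 6.80 on the left, and 4.83, 2.68, 2.35 and 0.627 on the right.

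The shape of the peaks was compared within each window. From the HBA2 to the HBA1 peak, the start moved by 3806 bp, the summit by 3804 bp and the end by 3811 bp, so the second peak had nearly the same outline as the first. The summit lay 365 bp from the start of the HBA2 peak and 363 bp from that of the HBA1 peak. Both were 5.12 and 5.15 times as wide as the estimated fragment of 154 bp, and wider than 96.5% and 96.6% of the vehicle list, whose median width was 158 bp. Among vehicle peaks at a control level under 10, only 2 were at least 793 bp wide, HBA1 and a peak of 935 bp outside the windows.

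The IGHG4 and IGHG2 peaks also had nearly the same outline. They were 281 and 286 bp wide, with the summit 139 and 141 bp from the start, and their starts, summits and ends were shifted by 18781, 18783 and 18786 bp. The IGHG1 peak was 553 bp wide, with its summit 402 bp from the start and 150 bp from the end. On the side of the end, the 3 peaks therefore agreed to within 9 bp (141, 144 and 150 bp from summit to end), and the IGHG1 peak reached further on the side of the start. The third peak was 154 bp wide, 1 bp more than the SFN fragment length of 153 bp, and its summit lay 21 bp from its start.

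**Figure D4:**
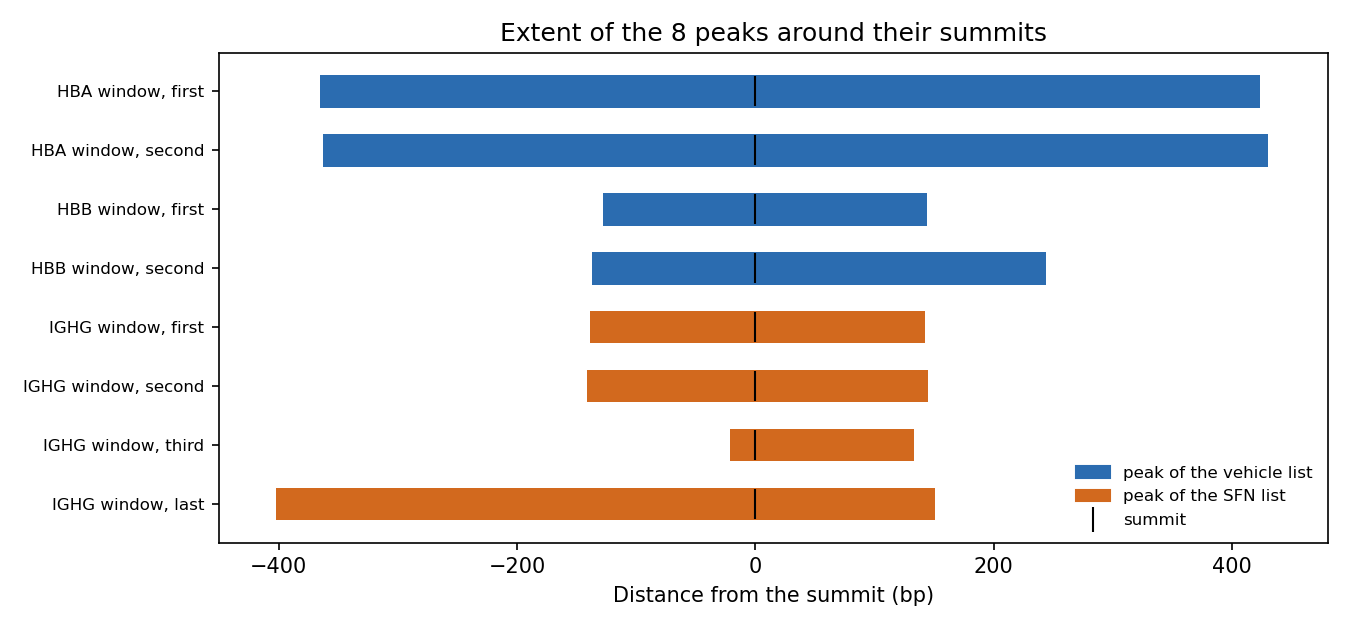
Extent of each of the 8 peaks (horizontal, bp from the summit) in the vehicle list (blue) and the SFN list (orange); the black tick is the summit. The HBA2 and HBA1 peaks span 788 and 793 bp around nearly the same summit position, the IGHG4 and IGHG2 peaks 281 and 286 bp, and the IGHG1 peak extends 402 bp before its summit.

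Duplicated genes share stretches of sequence, and tags of 36 bp from one copy can be placed at another. The treatment of such tags by the aligner is not stated in the labels or headers, so the HBA2 and HBA1 heights, and likewise those of the IGHG peaks and the differences between them, are uncertain as values of single genes. How many tags were shared was not tested. Whether the peak edges fall in exons, introns or untranslated regions, or at the ends of the genes, was not determined here, since no gene model of hg19 was used. The lists hold no tag sequences, and whether the tags came from chromatin of the cells or from foreign or plasmid DNA carrying these genes was not tested.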

How the data were processed

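Groups of the 5 samples follow the labels, which do not state whether cultures were separate, or whether samples were pooled before peaks were called. The submitters' processing notes name CASAVA 1.4, BWA, MACS2 and hg19. Per the file headers, MACS 2.1.0.20140616 called each list from 1 alignment against 1 control (28125771 of 33810302 tags kept), with at most 1 tag per position and a q cutoff of 0.05. The header of the vehicle list names its alignment NT, so its assignment to vehicle rests on the name under which the list was deposited. Of 23090154 SFN tags 32.3% were kept, and of 11377334 vehicle tags 12.8%. Keeping 1 tag per position caps peak height.

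The deposited pileup is a signal, the tags over the summit. The deposited fold is a ratio, the pileup plus 1 over the local control plus 1, and −log10 p and −log10 q values were also deposited. Solving the fold for the control and applying a Poisson upper tail gave back every deposited −log10 p to within 9.51e-05. The control level is a multiple of 0.422 (SFN) or 0.0833 (vehicle) tags, the genome average at each depth. For the height needed in the other list, the level of the list holding the peak was used; at the 768 shared vehicle peaks the levels of both lists had a median ratio of 0.994 (5th to 95th percentile 0.575 to 1.27). That computation was added after the data were seen, and was checked with the overlap step on simulated data.

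The windows, members and lists were chosen with earlier results of these data known. All 6 genes and all 8 peaks were named by rule, besides the nearest peaks outside the windows; the widest and highest peaks outside them were singled out after their values were seen. All 6 genes were matched in the RefSeq gene table (GRCh38.p14), which was used for names and order alone. Of the 6, 0 were matched in the RefSeq promoter table, and the planned motif and protein comparisons were not run. Poisson intervals are exact, at 95%, and cover counting error only. Python 3.11.15, pandas 2.3.3, scipy 1.17.1 and matplotlib 3.10.9 were used.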

Additional observations from a re-analysis of the deposited data

How the results depend on the processing

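The number of peaks in the windows, the lack of overlap and the number with a fold of 10 or more did not move by over 1.5 times under any alternative run. The last number did depend on the limit. With a fold limit of 5 it rose from 3 to 4 in each list, and with a limit of 20 it was 2 for vehicle and 3 for SFN. The width percentiles could not move, since their only alternative divided all widths of a list by the same fragment length. With windows widened by 10 kb, the peak beside HBB joined the vehicle members. No paired analysis was possible because the files give no value for a single sample; for the same reason no replicate was left out. The −log10 p in place of the height was not run, as it is on another scale. Ranked by pileup, HBA2 and HBA1 were 29 and 26, the HBB peaks 562 and 896, and the IGHG peaks, in order, 645, 736, 1204 and 221. Ranked by −log10 p, the HBB peaks were 88 and 488 and the first 3 IGHG peaks 48, 70 and 1200, while HBA2, HBA1 and IGHG1 held 3, 4 and 12. Per 1000000 tags before the limit on positions, the heights were 6.06 and 6.24 at HBA2 and HBA1, 1.41 and 0.703 at HBB, and 1.78, 1.56, 0.693 and 3.20 at IGHG, lower by construction.

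The ratios to the height not reached had 3 alternatives, all chosen after the data were seen. Divided by tags before the limit, they were 12.7 and 10.3 at HBA2 and HBA1, 6.49 and 2.71 at HBB, and 6.73, 5.91, 1.58 and 12.2 at IGHG; the order of HBA and IGHG1 thus depends on the division. With the weakest p at a q of 1e-05 or less, HBA2 and HBA1 had 22.0 and 18.1, the HBB peaks 10.2 and 4.08, and the IGHG peaks, in order, 1.34, 1.18, 0.392 and 2.42. With the control at the genome average, HBA2 and HBA1 had 70.4 and 72.5. The third IGHG peak, at 0.627, passed 1 with the control at the genome average (1.05) and with tags before the limit (1.58). At the vehicle depth of 1459665 kept tags, calls at IGHG needed 3 to 5 tags.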
